A study of Mus musculus with 12 samples.

Results

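The genes described here encode mitochondrial ribosomal proteins. They were chosen by symbol, as Mrpl or Mrps followed by a number and at most a letter from a to c, and 74 of the 22923 distinct gene symbols listed for each sample met this rule. Another 2 listings whose symbols are joined by commas, Mrps6 with Slc5a3 and Mrpl53 with Ccdc142, were left out because their value cannot be split between the genes. RNA was sequenced from the proximal hind limb skeletal muscle of 12 male FVB mice (FVB/N in the methods) aged 22 weeks, 3 in each of 4 groups. WT and KO mice each received either normal chow or a high fat diet. KO mice lacked both αB-crystallin (Cryab) and HspB2 (Hspb2), a pair of neighbouring small heat shock protein genes, and came, like the WT littermates, from heterozygous parents. The sample titles mark the WT mice with the word Flox, but no Cre and no restriction of the deletion to muscle is named, so effects of the deletion in muscle and elsewhere cannot be told apart. The authors deposited FPKM values, which scale the reads of a gene to its transcript length and to the library, and no read counts, so the depth behind a value is not known here.

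Mitochondria carry their own ribosomes, which translate only the membrane subunits of the respiratory chain and ATP synthase that mitochondrial DNA encodes. Every protein of these ribosomes is encoded in the nucleus, made in the cytosol and imported. A large subunit forms the peptide bonds and a small subunit reads the mRNA, and each holds proteins shared with bacterial ribosomes beside proteins found only in mitochondria. Skeletal muscle, and above all its oxidative fibres, is rich in mitochondria.

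By the known structure of the ribosome, 48 of the 74 proteins belong to the large subunit and 25 to the small subunit. The symbols give 46 Mrpl and 28 Mrps genes, because Mrps30 and Mrps18a sit in the large subunit despite their names, and Mrps36 is a subunit of the α-ketoglutarate dehydrogenase complex rather than of the ribosome. Of the large subunit proteins 30 are of bacterial type and 18 are mitochondrial, and of the small subunit proteins 15 are of bacterial type and 10 are mitochondrial. The genes are spread over 17 autosomes, with 10 on chromosome 11 and 8 on chromosome 17. In the annotation (GENCODE M21, GRCm38) 32 of them overlap another gene. The library kit did not mark strand, so reads from opposite genes in an overlap cannot be told apart. Mrpl46 (chr7:78775236-78783531, minus strand) and Mrps11 (chr7:78783119-78792989, plus strand), for example, overlap head to head and were measured at means of 21.3 and 20.1 FPKM over the 12 mice.

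The libraries matched the genotype of their titles. Cryab lay between 412 and 837 FPKM in the WT mice and between 0.845 and 1.75 FPKM in the KO mice, and Hspb2 between 81.5 and 103 FPKM against 0.353 and 1.92 FPKM. A separate genotype label contradicts the title in 6 samples, and the titles were used. Of 8 skeletal muscle markers Ckm, Tnnt3, Tnni2 and Myl1 were at 6809 FPKM or more in every library and Mb and Myh1 at 1552 and 397 FPKM or more, while Myh4 was listed at 0 in every library and Acta1 at 0 in WT chow replicate 1 and KO high fat replicate 2. Lymphocyte markers, 7 in all, summed to between 74 and 86.1 FPKM in WT chow replicate 2 and KO chow replicates 1 and 3 and to at most 6.43 FPKM in the other libraries. The methods speak of independent samples per genotype without saying more of the groups, and p-values measure the spread between them.

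RefSeq promoter windows (build GRCm38.p6, 250 bases before to 50 after a start site, the most upstream start of each gene) were at hand for 65 of the 74 genes. Nuclear respiratory factor 1 (NRF1), the ETS factor GABP, also called NRF2, and YY1 are known activators of nuclear genes for mitochondrial proteins. Their words were searched on both strands, CCGGAAG for the ETS factor and AAGATGGC for YY1. For NRF1 the word was that in capitals in the promoter of Mrps9, with any base allowed just before its T. The NRF1 word was in 12 windows (18.5%, against 10.6% of the windows of all tested genes), the ETS word in 21 (32.3% against 17.9%) and the YY1 word in 12 (18.5% against 4.56%). At least 1 of the words was in 38 windows (58.5% against 29.4%), and 7 windows held 2 of them. For the subunits of the respiratory chain and ATP synthase the share with at least 1 word was 51.5% of 66 windows, and for the cytosolic ribosomal proteins 54.1% of 61. Median GC was 58% in the 65 windows and 61% in those of all tested genes. Matches lay at a median distance of 38.0 bases from the start site for NRF1, 37.0 for ETS and 27.5 for YY1. A match is a description of letters and not a site known to be bound. The following stretches, from 150 bases before the start to 10 after it, are those of genes to which the comparisons below turn, with matched words in capitals and the window of Mrps16, which has none, for contrast.
Mrps9 (chr1:42851083-42851242, plus strand, NRF1 word 5 bases before the start): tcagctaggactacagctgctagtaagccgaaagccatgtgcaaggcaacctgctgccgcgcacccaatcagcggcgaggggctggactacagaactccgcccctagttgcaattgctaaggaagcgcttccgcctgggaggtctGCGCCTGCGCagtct
Mrpl3 (chr9:105053118-105053277, plus strand, ETS word 19 bases before the start): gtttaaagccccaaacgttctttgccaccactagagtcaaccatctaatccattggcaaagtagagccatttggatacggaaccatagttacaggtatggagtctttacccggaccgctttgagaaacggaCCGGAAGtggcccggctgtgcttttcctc
Mrpl36 (chr13:73330859-73331018, plus strand, YY1 word on the opposite strand 30 bases before the start): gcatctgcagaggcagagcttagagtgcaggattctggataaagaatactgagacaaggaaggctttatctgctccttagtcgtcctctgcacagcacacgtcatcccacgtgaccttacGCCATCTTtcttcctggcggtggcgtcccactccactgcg
Mrpl52 (chr14:54426759-54426918, plus strand, ETS words on the opposite strand 47 bases before the start and from base 3 after it): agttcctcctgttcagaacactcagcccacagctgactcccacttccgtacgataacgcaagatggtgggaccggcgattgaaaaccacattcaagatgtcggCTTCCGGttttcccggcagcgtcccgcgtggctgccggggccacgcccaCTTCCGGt
Mrps16 (chr14:20393625-20393784, minus strand): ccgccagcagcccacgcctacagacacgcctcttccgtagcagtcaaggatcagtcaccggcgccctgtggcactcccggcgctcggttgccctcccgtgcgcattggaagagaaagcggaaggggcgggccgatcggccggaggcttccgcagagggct

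All 74 genes were expressed, with no value of 0 in any library, and all passed the filter for testing, which asked for 1 FPKM or more in 3 or more mice. Means over the 12 mice ran from 3.68 to 298 FPKM, an 81.0-fold range, with a median of 37.5 FPKM, and 71 genes had a mean of at least 10 FPKM. FPKM is a level per length, so genes can be compared, but only roughly. Of the 74 genes 32 overlap another gene, and the annotation behind the lengths is not named. The highest means were those of Mrpl42 (298 FPKM), a mitochondrial protein of the large subunit, Mrps21 (204 FPKM), a small bacterial-type protein, Mrpl33 (166 FPKM), Mrpl30 (155 FPKM) and Mrpl12 (135 FPKM), which also binds the mitochondrial RNA polymerase. The lowest were those of Mrpl19 (3.68 FPKM), Mrpl41 (6.65 FPKM), Mrpl17 (8.05 FPKM), Mrps25 (11 FPKM) and Mrpl35 (12.5 FPKM). The FPKM values of genes for the same ribosome thus lay far apart. Medians by place in the ribosome were closer, at 37.2 FPKM for the bacterial-type and 32.9 FPKM for the mitochondrial proteins of the large subunit, and at 46.9 and 29.0 FPKM for those of the small subunit. Mrps18b, the mitochondrial one of the Mrps18 paralogs in the small subunit, had a mean of 47.3 FPKM, Mrps18a 56.3 FPKM, Mrps30 23.5 FPKM and Mrps36 93.9 FPKM. The median SD within groups was 0.149 on the log2(FPKM + 1) scale, against 0.154 over all tested genes, and the largest were those of Mrpl34 (0.25), Mrpl47 (0.23) and Mrps12 (0.22).

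**Figure D1:**
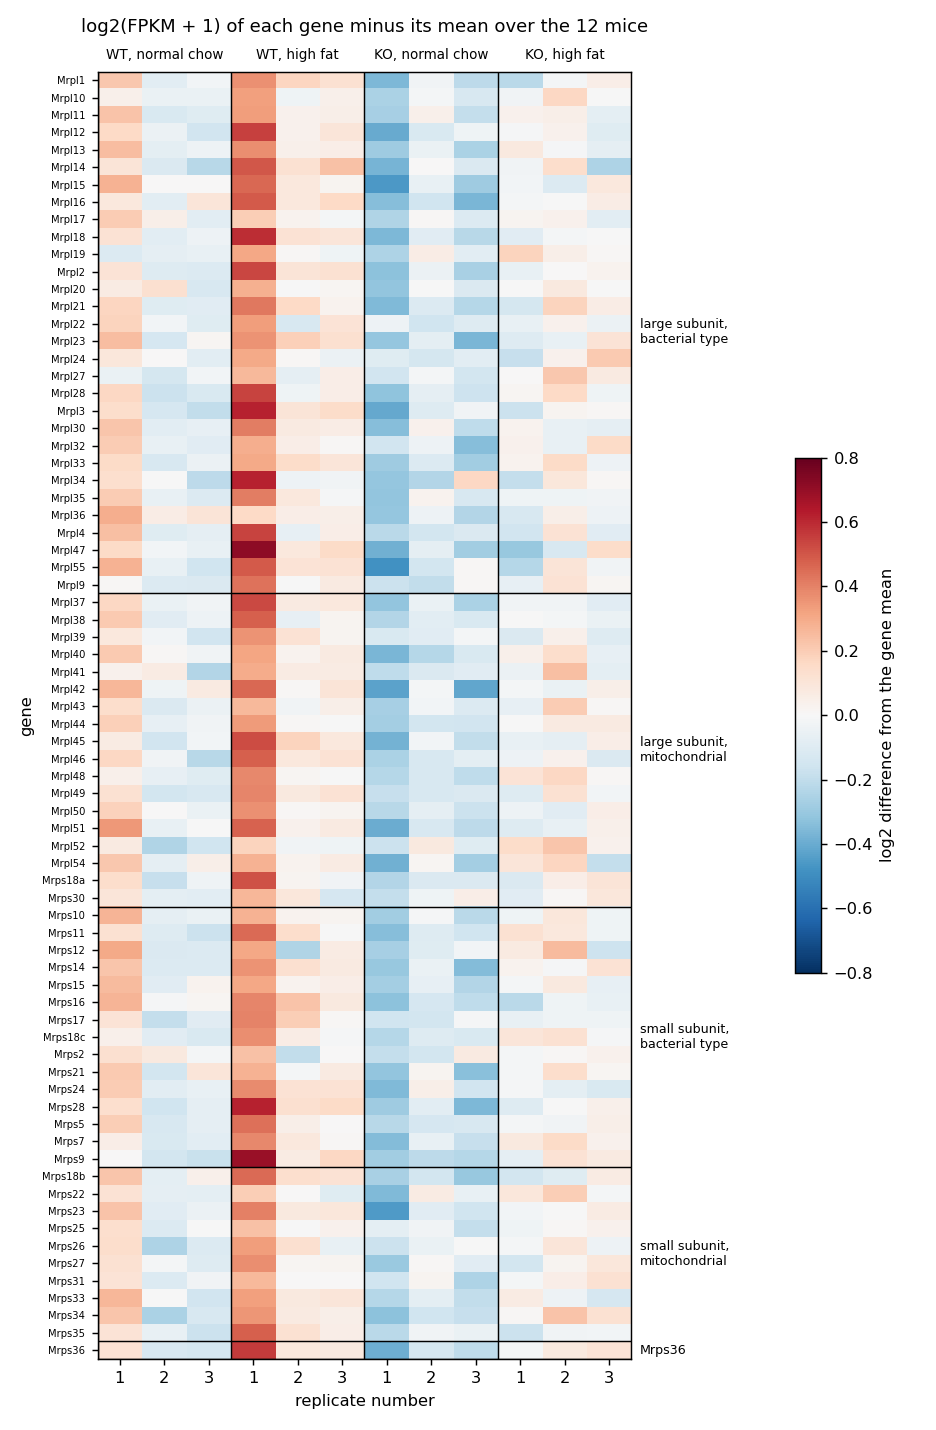
Each of the 74 genes (y axis, grouped by place in the ribosome) in each of the 12 mice (x axis, replicate numbers within the 4 groups), as log2(FPKM + 1) minus the mean of that gene over all mice, with red above and blue below the mean. WT high fat replicate 1 is red in all 74 genes and KO chow replicate 1 is blue in all 74.

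The genes varied together from mouse to mouse. Their summed FPKM was 4358, 3610 and 3708 in the WT chow mice and 5150, 4008 and 4042 in the WT high fat mice. In the KO chow mice it was 3090, 3678 and 3338, and in the KO high fat mice 3769, 3982 and 3838. The means were 3892 ± 407, 4400 ± 649, 3368 ± 295 and 3863 ± 109 FPKM (SD, n = 3 each), which is 13.1% higher on high fat diet than on chow in WT mice, 14.7% higher in KO mice, 13.5% lower in KO than in WT mice on chow and 12.2% lower on high fat diet. The 3 KO high fat mice all lay above the 3 KO chow mice, and below the 3 WT high fat mice, by 3982 against 4008 FPKM at the nearest, while the sums overlapped between diets in WT mice and between genotypes on chow. WT high fat replicate 1 stood apart, with the highest value of 71 of the 74 genes, and KO chow replicate 1 had the lowest value of 56. The mean of the large subunit genes divided by that of the small subunit genes stayed between 1.08 and 1.13 in every library, so the balance of the subunits hardly varied. As a share of all FPKM without Acta1 and Mir324, a microRNA gene listed at 10172200 FPKM in KO chow replicate 3 alone, the 74 genes took between 0.648% and 0.784%, with group means of 0.689%, 0.741%, 0.681% and 0.684% in the same order.

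**Figure D2:**
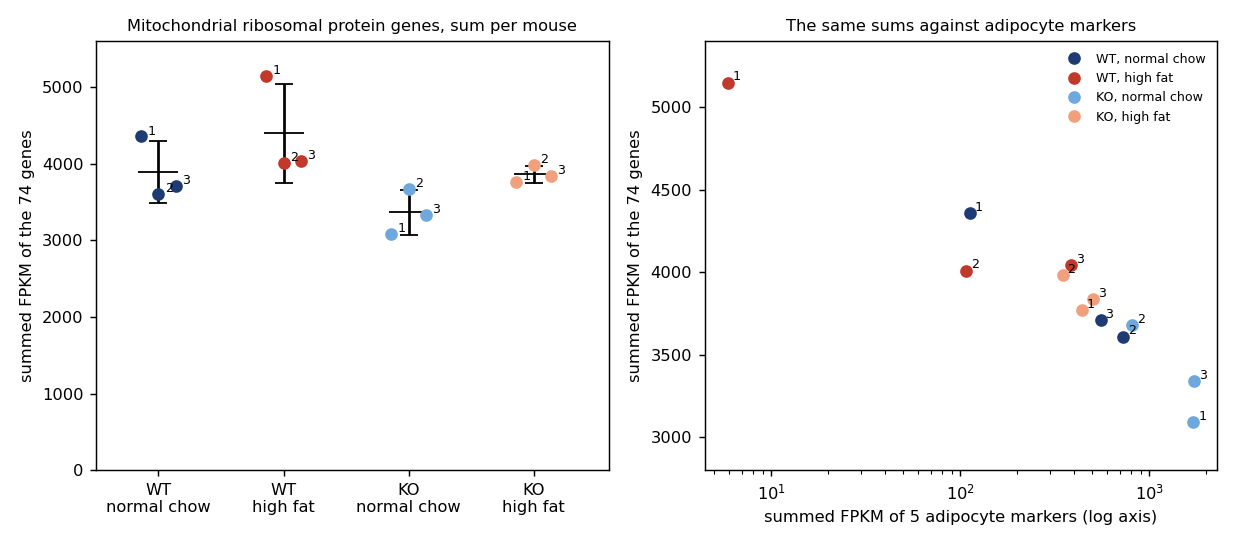
Left, the summed FPKM of the 74 genes in each mouse (points, with replicate number) by group, with the group mean and SD as bars. Right, the same sums (linear axis that does not start at 0) against the summed FPKM of 5 adipocyte markers (log axis), where WT high fat replicate 1 is at 5.90 and 5150 FPKM and KO chow replicate 1 at 1712 and 3090 FPKM.

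The sums ran opposite to the sum of 5 adipocyte markers. Adipoq, Plin1, Cidec, Cfd and Lep, products of fat cells, summed to 112, 729 and 553 FPKM in the WT chow mice and to 5.90, 108 and 385 FPKM in the WT high fat mice. The KO chow mice had 1712, 815 and 1729 FPKM and the KO high fat mice 439, 348 and 506 FPKM. The mouse with the highest sum of the 74 genes had the lowest adipocyte sum, and the 2 mice with the lowest sums had the 2 highest adipocyte sums. All 5 markers were detected in every library, but they did not move alike. In KO mice the mean of Cfd was 1034 FPKM on chow and 90.2 FPKM on high fat diet. Adipoq (175 and 109 FPKM) and Plin1 (80.5 and 46.3 FPKM) were also lower on high fat diet. Cidec (106 and 110 FPKM) was not, and Lep (23.2 and 75.2 FPKM) was higher. The adipocyte sum thus followed Cfd most in that comparison. In bulk muscle, fewer cells of a type and less RNA per cell cannot be told apart. Slow fibre markers, 6 in all, summed to only 156 FPKM in WT high fat replicate 1, against 2368 and 1795 FPKM in the other WT high fat mice and 268 to 1547 FPKM in the remaining groups, and their part in the result was not tested. Among the skeletal muscle markers Mb, the oxygen store of oxidative fibres, and Myh1, a fast myosin, were highest in the same mouse as the 74 genes, at 6173 and 1393 FPKM in WT high fat replicate 1. In WT mice both were higher on high fat diet without overlap (log2 fold changes 0.73 and 0.73, adjusted p = 0.36 and 0.38 by limma). Ckm, Myl1, Tnnt3 and Tnni2 were there at -0.11, -0.16, -0.02 and -0.01, with overlapping groups. In KO mice the means on chow and on high fat diet were 2065 and 2359 FPKM for Mb and 523 and 499 FPKM for Myh1. They were 16484 and 19159 FPKM for Ckm and 9276 and 11992 FPKM for Myl1. For Tnnt3 they were 11254 and 14261 FPKM and for Tnni2 8451 and 10148 FPKM. The groups of Ckm, Myl1, Tnnt3 and Tnni2 overlapped. On high fat diet Mb and Myh1 were both lower in KO mice without overlap (-0.92 and -0.95, adjusted p = 0.11 and 0.11 by limma). On chow Ckm and Myl1 had lower means in KO mice with overlapping groups (-0.41 and -0.50, adjusted p = 0.30 and 0.28 by limma). Tnnt3 (14572.5 and 11254 FPKM in WT and KO mice) and Tnni2 (10615 and 8451 FPKM) also had lower means there, with overlapping groups. The part of these markers in the results was not tested. The comparisons below are also given with the log2 adipocyte sum as a covariate, an adjustment chosen after the values were seen.

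The comparison of WT mice on high fat diet with those on chow asks how the diet alters the normal muscle. Of the 74 genes 72 had a higher mean on high fat diet (97.3%, where 46.4% of the 11945 tested genes lay above and 53.6% below 0), with a median log2 fold change of 0.17, or 12.4%, where the median of all tested genes was -0.01. No gene of the 74 had an adjusted p under 0.05 by limma, which 0.1% of all tested genes did. At an unadjusted p under 0.05 there were 8 that were higher (10.8%, against 4.42% of all tested genes) and 0 that were lower (against 3.70%). In 4 all high fat mice lay above all chow mice (6.20% of all tested genes), and in none did they lie below (6.88%).

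Mrps9, a bacterial-type protein of the small subunit, had the largest difference. The chow mice had 24.7, 22.1 and 21.7 FPKM and the high fat mice 40.4, 25.8 and 27.7 FPKM. The groups did not overlap, and the mouse at 40.4 FPKM stood far above the rest. On the log2 scale the fold change was 0.41 ± 0.14 (SE, adjusted p = 0.38 by limma). Mrpl14, a bacterial-type protein at the interface of the large subunit, followed with 119, 102 and 94.7 FPKM in the chow mice and 157, 121 and 131 FPKM in the high fat mice. These groups did not overlap either (log2 fold change 0.36 ± 0.14, adjusted p = 0.50 by limma). Mrpl3, a core protein of the large subunit, was at 40.8, 33.6 and 32.2 FPKM in the chow mice and at 57.1, 39.8 and 41.1 FPKM in the high fat mice. Its groups overlapped through WT high fat replicate 2 (0.35 ± 0.15, adjusted p = 0.58 by limma).

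The 2 genes with a lower mean on high fat diet differed by little. Mrpl36, a small zinc-binding protein of the large subunit, was at 49.8, 42.4 and 43.8 FPKM in the chow mice and at 45.5, 42.2 and 42.0 FPKM in the high fat mice. Mrps2, a bacterial-type small subunit protein, was at 14.4, 13.9 and 13.0 FPKM against 15.6, 11.3 and 13.1 FPKM. Both pairs of groups overlapped (log2 fold changes -0.06 ± 0.10 and -0.05 ± 0.11, adjusted p = 0.90 and 0.94 by limma). Without WT high fat replicate 1 the median log2 fold change over the 74 genes was 0.05, 53 genes were higher and 1 passed an unadjusted p of 0.05. That number was also 1 without WT chow replicate 2 or 3. It was 21 without WT chow replicate 1, 14 without WT high fat replicate 2 and 16 without WT high fat replicate 3. Here and below, counts of direction or at an unadjusted p from changed samples or settings stand without the share of all tested genes. They are not read as particular to the 74 genes. With the adipocyte sum as a covariate the median was -0.02 and 35 genes were higher.

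In KO mice the same diet comparison asks what the diet alters where both heat shock proteins are missing. All 74 genes had a higher mean on high fat diet (100%, where 56.0% of all tested genes lay above and 44.0% below 0), with a median log2 fold change of 0.17, or 12.7%, against 0.03 over all tested genes. None had an adjusted p under 0.05 by limma, and neither did any other gene (0%). There were 9 higher at an unadjusted p under 0.05 (12.2%, against 6.56% of all tested genes) and 0 lower (against 4.73%). In 23 all high fat mice lay above all chow mice (10.7% of all tested genes), and in none below (6.14%).

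Mrps34, a mitochondrial protein of the small subunit, was at 38.9, 43.7 and 43.1 FPKM in the chow mice and at 49.4, 57.5 and 53.4 FPKM in the high fat mice. Each high fat mouse was above each chow mouse (log2 fold change 0.34 ± 0.13, adjusted p = 0.43 by limma). Mrpl16, which lies near the tRNA sites of the large subunit, was at 26.9, 30.7 and 26.4 FPKM in the chow mice and at 33.9, 34.3 and 35.8 FPKM in the high fat mice. Its groups did not overlap (0.30 ± 0.11, adjusted p = 0.43 by limma). Mrps36, of the dehydrogenase complex, was at 70.4, 83.9 and 80.5 FPKM in the chow mice and at 91.8, 97.8 and 100.2 FPKM in the high fat mice, again without overlap (0.30 ± 0.14, adjusted p = 0.44 by limma). The smallest differences of the 74 were those of Mrpl39 and Mrps35, both at a log2 fold change of 0.02. Without KO chow replicate 1 the median over the 74 genes was 0.12, with 70 higher and 0 at an unadjusted p under 0.05. There were 21 without KO chow replicate 2, 2 without KO chow replicate 3 and 1 without KO high fat replicate 2. With the adipocyte sum as a covariate the median was 0.06 and 60 genes were higher.

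The diet comparisons in WT and in KO mice share no samples. In both, 72 of the 74 genes had a higher mean on high fat diet, where 32.2% of all tested genes did. None of the 74 passed an unadjusted p of 0.05 in both, and the share of all tested genes that did was not worked out.

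**Figure D3:**
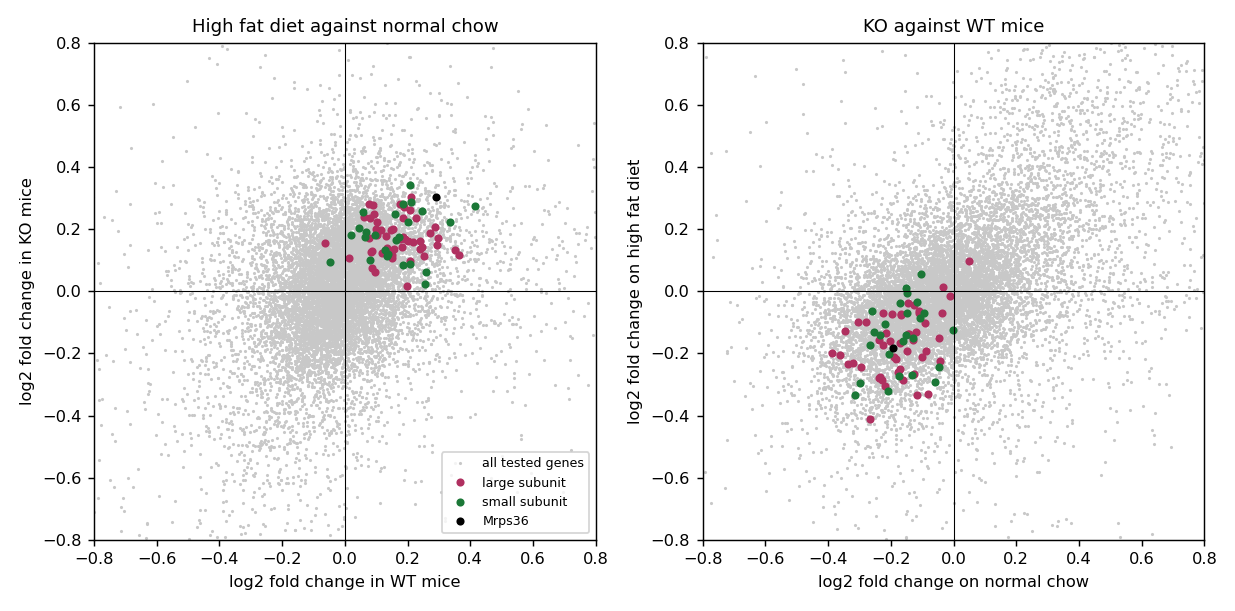
Log2 fold changes on the log2(FPKM + 1) scale of high fat diet against chow in WT (x axis) and KO mice (y axis), left, and of KO against WT on chow (x axis) and on high fat diet (y axis), right. Coloured points are the 74 genes and grey points all 11945 tested genes (those beyond 0.8 lie outside the frame), and 72 of the 74 lie in the upper right quadrant on the left and 70 in the lower left quadrant on the right.

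On normal chow the comparison of KO with WT mice asks what the deletion does to unchallenged muscle. The mean was lower in KO mice in 73 of the 74 genes (98.6%, where 55.0% of all tested genes lay below and 45.0% above 0), with a median log2 fold change of -0.17, which is -11%, against -0.03 over all tested genes. None of the 74 had an adjusted p under 0.05 by limma, which 0.0586% of all tested genes had. At an unadjusted p under 0.05 there were 10 that were lower (13.5%, against 9.93% of all tested genes) and 0 that were higher (against 6.73%). In 19 all KO mice lay below all WT mice (10.2% of all tested genes), and in none above (8.15%).

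Mrpl36 had the smallest p of these. It was at 49.8, 42.4 and 43.8 FPKM in WT mice and at 32.6, 39.5 and 34.4 FPKM in KO mice. No KO mouse reached the lowest WT mouse, with a log2 fold change of -0.35 ± 0.10 (adjusted p = 0.26 by limma). Mrpl36 overlaps Ndufs6, a complex I gene on the opposite strand, in the annotation. Mrpl42, with the highest mean FPKM of the 74, had the largest difference. It was at 354, 287 and 309.6 FPKM in WT mice and at 218, 291 and 219.9 FPKM in KO mice. KO chow replicate 2 lay within the WT range, so the groups overlapped (-0.39 ± 0.15, adjusted p = 0.28 by limma). Mrpl15, a bacterial-type protein of the large subunit, was at 35.3, 29.0 and 29.0 FPKM in WT mice and at 20.8, 27.7 and 23.6 FPKM in KO mice, without overlap (-0.36 ± 0.14, adjusted p = 0.28 by limma).

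The exception in direction was Mrpl52, a mitochondrial protein of the large subunit, at 105, 84.3 and 89.4 FPKM in WT mice and 88.7, 106 and 93.4 FPKM in KO mice (0.05 ± 0.11, adjusted p = 0.82 by limma). Its groups overlapped widely. Without WT chow replicate 1 the median over the 74 genes was -0.09 and 2 passed an unadjusted p of 0.05, and without KO chow replicate 1 it was -0.11, also with 2. Without KO chow replicate 3 there were 3, without KO chow replicate 2 there were 19 and without WT chow replicate 2 there were 16. With the adipocyte sum as a covariate it was -0.02 and 52 genes were lower.

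On high fat diet the mean was lower in KO than in WT mice in 70 of the 74 genes (94.6%, where 52.9% of all tested genes lay below and 47.1% above 0), with a median log2 fold change of -0.16, which is -10.2%, against -0.01 over all tested genes. None had an adjusted p under 0.05 by limma, which 0.109% of all tested genes had. There were 12 lower at an unadjusted p under 0.05 (16.2%, against 6.45% of all tested genes) and 0 higher (against 9.79%). In 21 all KO mice lay below all WT mice (10.7% of all tested genes), and in none above (13.0%).

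Mrpl47, a bacterial-type protein near the peptide exit, was at 43.1, 27.5 and 28.8 FPKM in WT mice and at 20.8, 23.6 and 28.7 FPKM in KO mice. The highest KO mouse lay between the WT mice, with a log2 fold change of -0.41 ± 0.17 (adjusted p = 0.26 by limma). Mrpl3 was at 57.1, 39.8 and 41.1 FPKM in WT mice and at 32.7, 37.6 and 37.2 FPKM in KO mice, without overlap (-0.34 ± 0.15, adjusted p = 0.31 by limma). Mrps16, a bacterial-type small subunit protein, was at 139.5, 124 and 112 FPKM in WT mice and at 91.3, 103 and 102 FPKM in KO mice, also without overlap (-0.33 ± 0.11, adjusted p = 0.17 by limma).

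The genes with a higher mean in KO mice on high fat diet were Mrpl52, Mrps22, Mrpl27 and Mrps12. Mrpl52 was at 113, 97.8 and 97.3 FPKM in WT mice and at 111, 116 and 102 FPKM in KO mice, a log2 fold change of 0.10 ± 0.11. Those of Mrps22, a mitochondrial protein of the small subunit, and of Mrpl27, which reaches into the peptidyl transferase centre in bacteria, were 0.06 ± 0.12 and 0.01 ± 0.10. All 3 had overlapping groups, and their adjusted p lay between 0.73 and 0.97 by limma. Without WT high fat replicate 1 the median over the 74 genes was -0.04, 52 genes were lower and 0 passed an unadjusted p of 0.05. Also 0 passed without KO high fat replicate 1, 4 without KO high fat replicate 2 and 7 without KO high fat replicate 3. With the adipocyte sum as a covariate it was 0.04 and 24 genes were lower.

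The genotype comparisons on chow and on high fat diet share no samples. In both, 70 of the 74 genes had a lower mean in KO mice, where 38.0% of all tested genes did. Mrps16 and Mrps18b, both of the small subunit, had an unadjusted p under 0.05 in both. The share of all tested genes at that p in both was not worked out, so this is not read as particular to the 74 genes. On chow Mrps16 was at 128, 105 and 107 FPKM in WT mice and at 84.3, 96.5 and 91.9 FPKM in KO mice. Mrps18b was at 54.9, 44.4 and 48.1 FPKM in WT mice and at 39.0, 42.2 and 37.8 FPKM in KO mice on chow. On high fat diet Mrps18b was at 64.4, 51.5 and 50.8 FPKM in WT mice and at 42.2, 43.6 and 49.0 FPKM in KO mice. The WT and KO mice did not overlap for either gene on either diet. The same held for Mrpl16, Mrpl18, Mrpl36 and Mrps23. The share of all tested genes without overlap on both diets was not worked out.

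**Figure D4:**
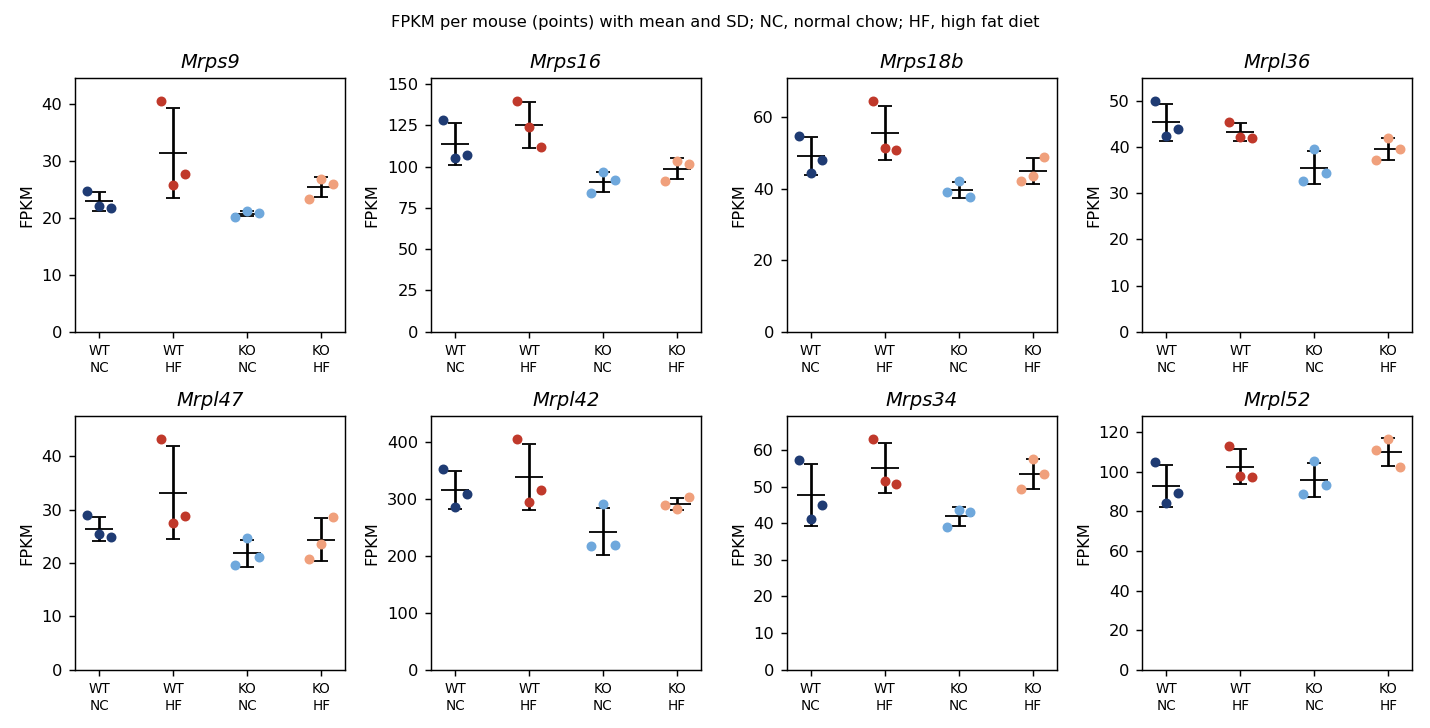
FPKM of 8 of the genes in each mouse (points) by group, with the group mean and SD as bars and each y axis starting at 0. Mrps16 and Mrps18b lie lower in KO than in WT mice on both diets without overlap, as does Mrpl36, while Mrpl52 overlaps on both.

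Averaged over both diets, the KO mice had a lower mean in 73 of the 74 genes (98.6%, where 55.6% of all tested genes lay below and 44.4% above 0), with a median log2 fold change of -0.17. None passed an adjusted p of 0.05 by limma, which 0.862% of all tested genes did, and 27 were lower and 0 higher at an unadjusted p under 0.05 (36.5%, against 13.4% of all tested genes lower and 13.1% higher). The smallest adjusted p was that of Mrps16 (log2 fold change -0.32 ± 0.08, adjusted p = 0.061), followed by Mrps18b (-0.30 ± 0.08, adjusted p = 0.073), and the largest difference was that of Mrpl47 (-0.34 ± 0.12, adjusted p = 0.12), all by limma. Without KO chow replicate 2 the adjusted p was under 0.05 in 7 of the 74 genes and in 1208 of all tested genes, and without WT high fat replicate 3 in 1 and 491. The 27 genes at an unadjusted p under 0.05 became 12 without WT chow replicate 1, 13 without WT high fat replicate 1, 13 without KO chow replicate 1 and 17 without KO high fat replicate 1 or 3, and at most 38 without any other. Without the 3 libraries with lymphocyte markers only replicate 2 of the KO chow mice is left, so no count is given. Mrpl52 again lay on the other side of 0 (0.07 ± 0.08, adjusted p = 0.56 by limma). Averaged over both genotypes, all 74 genes had a higher mean on high fat diet (where 52.6% of all tested genes lay above and 47.4% below 0), with a median log2 fold change of 0.16. By limma 0 had an adjusted p under 0.05 (0.0586% of all tested genes) and 26 were higher at an unadjusted p under 0.05 (35.1%, against 7.96%), with 0 lower (against 5.94%). Mrps9 had the largest difference (0.34 ± 0.10, adjusted p = 0.20), then Mrps36 (0.30 ± 0.10, adjusted p = 0.25) and Mrps28, a bacterial-type small subunit protein (0.28 ± 0.10, adjusted p = 0.28 by limma). The 26 genes became 45 without WT chow replicate 1 and 12 without KO chow replicate 1. They became 13 without WT chow replicate 2 or WT high fat replicate 1, and 14 without WT chow replicate 3 or KO high fat replicate 2. The medians for genotype and diet were -0.002 and 0.02 with the adipocyte covariate.

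The test of whether the diet difference itself differed between genotypes found none of the 74 genes at an adjusted p under 0.05 by limma (0% of all tested genes), and none at an unadjusted p under 0.05, which 3.55% of all tested genes had above and 2.70% below 0. The median was 0.01, with 42 genes above 0 (55.4% of all tested genes, with 44.6% below), and single values ran from -0.25 ± 0.20 for Mrpl14 to 0.22 ± 0.14 for Mrpl36. For Mrpl36 the 95% confidence interval of that difference was -0.08 to 0.52. The median was 0.08, with 56 genes above 0, once the adipocyte sum was a covariate. Between these lay Mrps35 (-0.23), Mrpl3 (-0.22), Mrps21 (0.20) and Mrpl40 (0.20). Ordered by group means, 38 genes were highest in WT mice on high fat diet, then WT on chow, KO on high fat diet and KO on chow. In 30 the middle places were exchanged. The remaining 6 had other orders, and 73 of the 74 genes were lowest in KO mice on chow.

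Differences were of similar size in all parts of the ribosome. In WT mice the median log2 fold change with diet was 0.18 for the bacterial-type and 0.13 for the mitochondrial proteins of the large subunit, and 0.18 and 0.15 for those of the small subunit. For KO against WT mice averaged over diets it was -0.20, -0.16, -0.16 and -0.12 in the same order. At an unadjusted p under 0.05 there were 12, 7, 5 and 3 genes that were lower (against 13.4% of all tested genes). Genes with and without a promoter word differed as little, with medians for diet averaged over genotypes of 0.17 in 38 and 0.16 in 27 genes and for genotype averaged over diets of -0.16 in both sets. These are descriptions, and the differences between the sets were not tested.

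Other genes of mitochondrial translation, from lists drawn up by role, showed smaller or similar differences, and none passed an adjusted p of 0.05 in any of the 7 comparisons by limma. A list of ribosome proteins with other names also held the membrane insertase Oxa1l. Its genes, 8 in all, had a median log2 fold change of 0.13 with diet averaged over genotypes and of -0.15 with genotype averaged over diets. Among them Gadd45gip1, a protein of the large subunit, had the largest difference with diet (0.30 ± 0.09, adjusted p = 0.20 by limma), and Dap3, a GTP-binding protein of the small subunit, the lowest with genotype (-0.16 ± 0.08, adjusted p = 0.20 by limma). The 22 assembly factors had medians of 0.08 and -0.13. At an unadjusted p under 0.05, 4 were higher with diet (against 7.96% of all tested genes) and 7 lower with genotype (against 13.4%). Eral1, which chaperones the small subunit RNA, lay lowest in KO mice (-0.26 ± 0.08, adjusted p = 0.090 by limma).

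The 13 tested initiation, elongation, termination and mRNA-binding factors were all lower in mean in KO mice averaged over diets (median -0.17). At an unadjusted p under 0.05 there were 7 (against 13.4% of all tested genes lower). The elongation factor Gfm1 led them (-0.32 ± 0.10, adjusted p = 0.099 by limma). With diet the 13 had a median of 0.12. The 19 mitochondrial tRNA synthetases and amidotransferase subunits had medians of 0.05 with diet and -0.13 with genotype, from Cars2 (-0.28 ± 0.07, adjusted p = 0.071 by limma) to Nars2 (0.12 ± 0.05, adjusted p = 0.16 by limma), which charge tRNAs with cysteine and asparagine. The 7 genes for copying and transcribing mitochondrial DNA had medians of 0.05 and -0.12. Among 9 regulators of mitochondrial biogenesis the coactivator Ppargc1b had the highest log2 fold change with diet (0.28 ± 0.08, adjusted p = 0.20 by limma), the coactivator Ppargc1a the lowest (-0.32 ± 0.15, adjusted p = 0.36 by limma), and the list medians were -0.05 and -0.09. For Ppargc1b the log2 fold change with diet was 0.50 ± 0.11 in WT (adjusted p = 0.14 by limma) and 0.07 ± 0.11 in KO mice. The test of that difference gave -0.43 ± 0.16 (adjusted p = 0.71 by limma). The group means of Ppargc1b lay near the filter of 1 FPKM. They were 0.95 and 1.77 FPKM in WT mice on chow and on high fat diet and 1.27 and 1.39 FPKM in KO mice.

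Beside 2 larger families measured in the same libraries, the 74 genes lay between them. Subunits of the respiratory chain and ATP synthase, 78 tested by symbol, had medians of 0.30 and 0.20 with diet in WT and KO mice and of -0.25 and -0.35 with genotype on chow and on high fat diet. Averaged over diets, 68 of the 78 were lower and 2 higher in KO mice at an unadjusted p under 0.05. Of all tested genes 13.4% were lower and 13.1% higher. By limma 1 of the 78 passed an adjusted p of 0.05, which 0.862% of all tested genes did. Cytosolic ribosomal proteins, 81 tested, had medians of 0.09 and 0.10 with diet and of 0.01 and 0.01 with genotype. The summed FPKM of the 74 genes was 7.16% of that of the respiratory chain and ATP synthase subunits in WT high fat replicate 1, the lowest share of all libraries, and 8.99% in KO chow replicate 1, the highest. These values are set side by side, and the differences between families were not tested.

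The size of the family's differences depended on how the libraries were scaled and on the adipocyte covariate. Some medians came near 0 and changed sign. Total FPKM without Acta1 and Mir324 ran from 461860 to 656456, and when each library was brought to the same total, a choice made after the values were seen, the median log2 fold change of the 74 genes was 0.10 for diet in WT mice, -0.01 for diet in KO mice, 0.02 for genotype on chow and -0.09 for genotype on high fat diet. The medians of all tested genes were then -0.07, -0.14, 0.13 and 0.04. Measured from these, the medians of the 74 genes lay at 0.17, 0.12, -0.12 and -0.13. Quantile normalization gave 0.12, 0.08, -0.10 and -0.15 in the same order. With the adipocyte sum as a covariate the medians were -0.02, 0.06, -0.02 and 0.04, no farther than 0.06 from 0 in either direction. Without the 3 libraries with lymphocyte markers, a choice also made after the values were seen, they were 0.12, 0.07, -0.12 and -0.16. That fit kept only replicate 2 of the KO chow mice and replicates 1 and 3 of the WT chow mice, so no count of genes is given. Macrophage markers, 5 in all, also moved with genotype, from 29.6 to 44.5 FPKM in sum in 5 of the 6 WT mice and 10.9 FPKM in WT high fat replicate 1 to between 50.02 and 95.4 FPKM in the KO mice, and their part in the result was not tested.

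**Figure D5:**
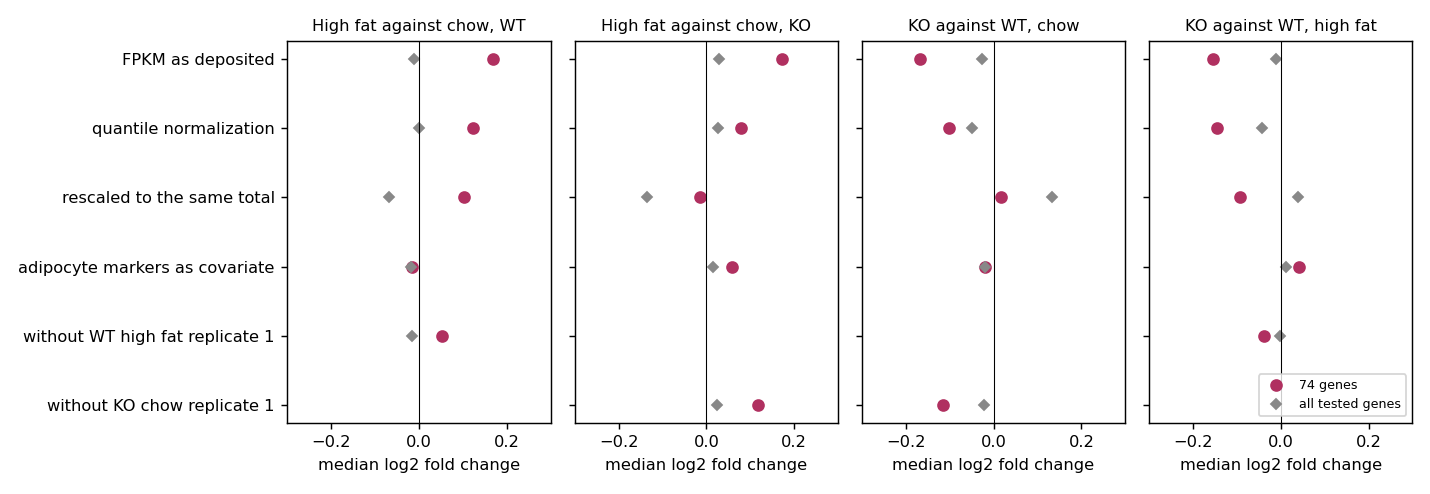
Median log2 fold change of the 74 genes (circles) and of all tested genes (diamonds) in the 4 comparisons of 2 groups (panels), under 6 ways of processing (y axis), and a left-out library has no point in a comparison it does not enter. The circles lie between 0.10 and 0.17 from 0 as deposited and after quantile normalization in all but 1 case (0.08), and within 0.06 of 0 with the adipocyte covariate.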

How the data were processed

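RNA of 12 libraries was prepared with the TruSeq RNA kit and sequenced in pairs on a HiSeq2000. The submitters' processing notes name TopHat2 2.0.8b, Cuffdiff 2.1.1 and mm10, without their parameters or annotation. The authors deposited 1 FPKM value per listed gene and library, not pooled (the listing with the highest mean was kept where a symbol repeats), and the unit was read from the values. Samples were grouped by title. Values were taken to log2(FPKM + 1), genes with at least 1 FPKM in at least 3 samples were kept (11945), and limma 3.58.1 in R 4.3.3 was fitted with a variance trend and 4 group means, Benjamini-Hochberg adjustment over all tested genes and a threshold of 0.05. The test was tried on simulated data. Fold changes on this scale understate those of low genes.

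The members and lists were chosen with earlier results of these data known, so lists are described by counts and medians without a test. Named members are those with an adjusted p under 0.05, the 3 largest differences each way in a comparison, the 5 highest and 5 lowest means, the 3 largest spreads and those whose place differs from their symbol, and of other lists the genes with an adjusted p under 0.05 and the extremes of a comparison. Mrpl18, Mrpl39, Mrpl46, Mrps11, Mrps23 and the muscle markers Mb, Myh1, Ckm, Myl1, Tnnt3 and Tnni2 were named after their values were seen. So were, for some values, Ppargc1b, Mrpl16, Mrpl36, Mrps12, Mrps16, Mrps18b, Mrps35 and the single adipocyte markers. Promoter windows are RefSeq's, positions GENCODE M21's (all 74 symbols matched). Python 3.11.15, NumPy 2.4.6, pandas 2.3.3 and matplotlib 3.10.9 did the rest. Alternatives were a pseudocount of 0.1, no filter, size factors, quantile normalization, a replicate block, fits of the compared groups alone, the genotype label in place of the title and leaving out each sample, and, added after the data were seen, a common total, 3 libraries with lymphocyte markers left out and an adipocyte covariate.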

Additional observations from a re-analysis of the deposited data

How the results depend on the processing

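With a pseudocount of 0.1, no filter, size factors or fits of the compared groups alone, no gene of the 74 passed an adjusted p of 0.05. The median kept its direction in these fits, and with 3 libraries left out for lymphocyte markers, as far as each comparison was fitted. This held for the 6 comparisons other than the interaction. Under a common total the median was -0.014 for diet in KO mice and 0.017 for genotype on chow. With the adipocyte covariate it was -0.015 for diet in WT mice, -0.019 for genotype on chow, 0.041 for genotype on high fat diet, 0.022 for diet averaged over genotypes and -0.0020 for genotype averaged over diets. Quantile normalization called 1 gene for genotype averaged over diets. This call stands without the share of all tested genes and is not read as particular to the 74. Leaving out each sample called 0 to 7 for genotype averaged over diets and 0 in the other 6 comparisons. The causes were not tested.

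With genotype by label the median was 0.13 for genotype on high fat diet, 0.25 for the interaction and -0.011 for genotype averaged over diets. On high fat diet Mrpl52 was at -0.15, Mrps22 at -0.12, Mrpl27 at -0.028, Mrpl47 at 0.49, Mrpl3 at 0.29 and Mrps16 at 0.28. The interaction of Mrpl14 was 0.19, of Mrps35 0.34 and of Mrpl3 0.49, and averaged over diets Mrpl52 was at -0.043, Mrpl47 at 0.16, Mrps16 at 0.018 and Mrps18b at 0.070. Diet in WT mice gave -0.019 for Mrpl3. Cryab and Hspb2 follow the titles in every library. Leaving out 1 sample at a time gave -0.11 to 0.0043 for Mrpl36 and -0.16 to 0.056 for Mrps2 in diet in WT mice, -0.023 to 0.14 for Mrpl52 in genotype on chow, and -0.0094 to 0.14 for Mrps22 and -0.063 to 0.10 for Mrpl27 in genotype on high fat diet.

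Same-numbered deviations from the group means correlated at means of 0.17, -0.22, -0.50 and -0.015 in the 4 comparisons of 2 groups. Differently numbered ones correlated at means of -0.084, 0.10, 0.24 and 0.0054. Deviations within a group of 3 sum to 0, so these values cannot show whether the replicate numbers of the titles pair the mice. As a replicate block the numbers called 0 of the 74 genes in all 7 comparisons by limma and left the medians as they were. At an unadjusted p under 0.05 the block gave 17 in place of 26 and 22 in place of 27 genes for diet and genotype averaged. For diet in WT and KO mice and genotype on chow and on high fat diet it gave 4, 7, 7 and 2 in place of 8, 9, 10 and 12. Fits of the compared groups alone gave 2, 12, 8 and 5 of these. The depth in reads that limits the lowest genes is not known.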
